A study of Mus musculus with 98 samples.

Results

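The 4 genes described here encode C-type lectin receptors of myeloid cells: Clec4e (Mincle), Clec4d (MCL), Clec4n (Dectin-2) and Clec7a (Dectin-1). Every probe set that the platform gene table pairs with these symbols was taken, which gave 4 of 12394 named genes and 6 of 22626 probe sets of a mouse expression array. Clec4e had 1420330_at and 1420331_at, Clec4d had 1420804_s_at, Clec4n had 1419627_s_at and 1425951_a_at, and Clec7a had 1420699_at. All 4 genes lie on chromosome 6 in the reference gene table of GRCm38.p6, where Clec4n, Clec4d and Clec4e are consecutive protein-coding genes and Clec7a lies 106 coding genes away from Clec4e. By the manufacturer's naming, probe sets ending in _s_at can match transcripts of several genes, so the Clec4d and Clec4n values may hold signal of related genes, and probe sets ending in _a_at match alternative transcripts of one gene.

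Myeloid C-type lectin receptors recognise glycans and glycolipids of fungi and mycobacteria. Mincle binds the mycobacterial cord factor and a ribonucleoprotein released by dying cells, MCL binds the same glycolipid, Dectin-2 binds fungal mannans and Dectin-1 binds fungal beta-glucan. Mincle, MCL and Dectin-2 lack a signaling motif of their own and pair with the Fc receptor gamma chain (Fcer1g), whereas Dectin-1 carries its own motif. All of them signal through the kinase Syk and the Card9, Bcl10 and Malt1 complex to NF-kB, and induction of Mincle in macrophages depends on the transcription factor C/EBP-beta (Cebpb).

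The arrays measured total RNA of mouse blood leukocytes (64 arrays) and spleen (34 arrays) in 3 models, which the labels name as burn, trauma-hemorrhage and infusion of LPS, the lipopolysaccharide of Gram-negative bacteria. Array titles carry a code, x or c, and a letter, E or A. For blood the labels give E as the injury or infusion and A as sham, and they leave the codes unexplained, so x was compared with c as coded. All spleen titles carry E, and those of LPS spleen alone also carry v2, a mark that was not interpreted here. In burn spleen all x title numbers lie below all c numbers, and in trauma-hemorrhage spleen they lie above them. Title order and code cannot be told apart in these sets. In blood, the burn arrays were 5 x and 6 c of letter E and 4 x and 5 c of letter A. The LPS arrays were 5 x and 6 c of letter E and 5 x and 6 c of letter A, and the trauma-hemorrhage arrays were 6 x and 6 c of letter E and 5 x and 5 c of letter A. In spleen there were 6 x and 5 c burn arrays, described as leukocytes from the organ, 6 x and 6 c LPS arrays and 5 x and 6 c trauma-hemorrhage arrays. Strain, sex, age and the time after injury are not given in the sources used here. The labels do not state that each array had its own animal. The p-values therefore reflect array-to-array spread alone, and that spread may be technical.

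Values are deposited linear intensities, and dim probe sets were held at a floor that differed between array sets (a model in a tissue), the lowest being 9.68 (burn spleen) and the highest 32.5 (LPS blood). Sets also differed in scale, so levels were compared within a set only. Differences were taken as log2(intensity + 16) after quantile normalization within the tissue and are given ± SE, and a difference was called at an adjusted p of 0.05 over the 15838 probe sets that passed a filter on low values. Of the 6 probe sets, 5 passed in both tissues. Clec4n 1425951_a_at did not pass, with a mean at percentile 9.01 in blood and 15.6 in spleen. In burn blood, 2 of the 6 c arrays of letter E stood apart from the other c arrays, and results in that set are given with and without them. No formal rule picked these arrays, which had the highest Clec4e values among the c arrays. Leaving them out narrows the c spread by construction, so values and p-values without them are descriptions only. Titles of the 3 blood sets and of LPS spleen were split into 2 runs, at the number where the order of groups starts again. The numbers do not break at that point, and the titles name no runs. Values within each run are given where they differ. The log2 ratio of the 3-prime to the 5-prime beta-actin control probe set, a sign of RNA quality, was 0.938 to 1.27 in x arrays and 1.49 to 1.65 in c arrays of LPS blood. In trauma-hemorrhage blood it was 0.970 to 1.65 in x arrays and 1.79 to 2.28 in c arrays. In these 2 sets the ratio and the code cannot be told apart. Blood arrays, labelled as leukocytes, carried the neutrophil marker S100a8 at a mean intensity of 8635, and also the erythroid marker Alas2 at 10319 and the platelet marker Ppbp at 5697. Spleen arrays carried the B cell marker Ms4a1 at 5555 and S100a8 at 5054.

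Clec4e and Clec4d, described first, have 250-base sequences before their start sites in the RefSeq promoter table of GRCm38.p6, as has Clec7a. These 3 are shown because Clec4e and Clec4d were called higher in the same spleen sets in which Clec7a was lower or not called, with matches to any of 6 motifs in capitals. Clec4n had no entry. The motifs, searched on both strands, were TTNNGNAA (C/EBP), GGANTTTCC (kB-type), GAGGAA (PU.1), TGANTCA (AP-1), TTCNNNGAA (STAT) and GAAANNGAA (IRF).
Clec4e (chr6:123289872-123290121, - strand): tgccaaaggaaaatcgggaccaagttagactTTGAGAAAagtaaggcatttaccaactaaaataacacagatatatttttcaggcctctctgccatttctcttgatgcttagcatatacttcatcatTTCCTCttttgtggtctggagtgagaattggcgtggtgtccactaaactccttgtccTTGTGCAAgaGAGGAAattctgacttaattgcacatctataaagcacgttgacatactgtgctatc
Clec4d (chr6:123261857-123262106, + strand): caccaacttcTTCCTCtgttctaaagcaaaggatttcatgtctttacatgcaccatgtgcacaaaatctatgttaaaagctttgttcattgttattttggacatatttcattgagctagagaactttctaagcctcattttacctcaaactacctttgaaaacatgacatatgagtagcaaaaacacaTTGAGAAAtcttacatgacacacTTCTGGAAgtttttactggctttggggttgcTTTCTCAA
Clec7a (chr6:129472780-129473029, - strand): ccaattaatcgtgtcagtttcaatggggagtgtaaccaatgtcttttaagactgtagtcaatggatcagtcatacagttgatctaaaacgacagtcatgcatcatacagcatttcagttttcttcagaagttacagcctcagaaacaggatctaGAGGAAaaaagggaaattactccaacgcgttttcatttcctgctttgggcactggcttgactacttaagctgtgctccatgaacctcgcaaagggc
The Clec4e sequence held 2 C/EBP-type matches, with first bases 219 and 66 bases before the start, and 2 PU.1-type matches, 123 and 56 bases before it. The Clec4d sequence held 3 C/EBP-type matches, 62, 39 and 8 bases before the start, and 1 PU.1-type match 240 bases before it. The Clec7a sequence held 1 PU.1-type match, 96 bases before the start, and no C/EBP-type match. A second Clec7a entry (chr6:129472786-129473035, - strand), not shown, held the same PU.1-type match 90 bases before its start and no C/EBP-type match. No match overlapped another, and the other 4 motifs had no match in these windows. Over all 32851 promoters of this length, 36.8% held the C/EBP letters, 23.3% the PU.1 letters, 1.1% the kB-type letters, 6.7% the AP-1 letters, 7.0% the STAT letters and 7.1% the IRF letters. Such short letters occur often, and a match is a description only.

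Clec4e was higher in x than in c arrays in all 6 array sets by both of its probe sets, with log2 differences from 1.72 to 3.05 for 1420330_at and from 1.01 to 2.46 for 1420331_at. In the spleen the 2 codes did not overlap in any model, and in blood they overlapped in every model. How many of all tested probe sets had codes without overlap was not counted. Overlap is therefore a description only, here and for the other receptors. In burn spleen, 1420330_at had intensities of 229.9 to 366 in the 6 x arrays with a median of 331, against 50.6, 40.0, 90.4, 47.2 and 96.2 in the 5 c arrays. The difference was 2.03 ± 0.17, a 4.09-fold higher level in x (adjusted p = 7.03e-07). In LPS spleen the 6 x arrays had 2158 to 3868 with a median of 2790, and the 6 c arrays had 176 to 1061 with a median of 279. This was the largest difference of the gene, 3.05 ± 0.37 (8.30-fold, adjusted p = 0.000291). In trauma-hemorrhage spleen the 5 x arrays had 1607, 882, 1105, 714 and 1121, against 54.0 to 213.8 with a median of 95.8 in the 6 c arrays. The difference was 3.01 ± 0.25 (8.05-fold, adjusted p = 7.45e-07). The second probe set, 1420331_at, gave 1.01 ± 0.10 in burn, 2.26 ± 0.19 in LPS and 2.46 ± 0.20 in trauma-hemorrhage spleen, with adjusted p of 4.16e-06, 2.69e-05 and 5.32e-07. In these comparisons 17.6% (burn), 3.30% (LPS) and 27.4% (trauma-hemorrhage) of all tested probe sets were called, and 4, 5 and 5 of the 5 tested probe sets of the receptors were. The 3.05 of LPS spleen was 2.23 ± 0.35 in the first run of title numbers and 3.88 ± 0.19 in the second, both past the threshold (adjusted p = 0.0426 and 0.00054).

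**Figure D1:**
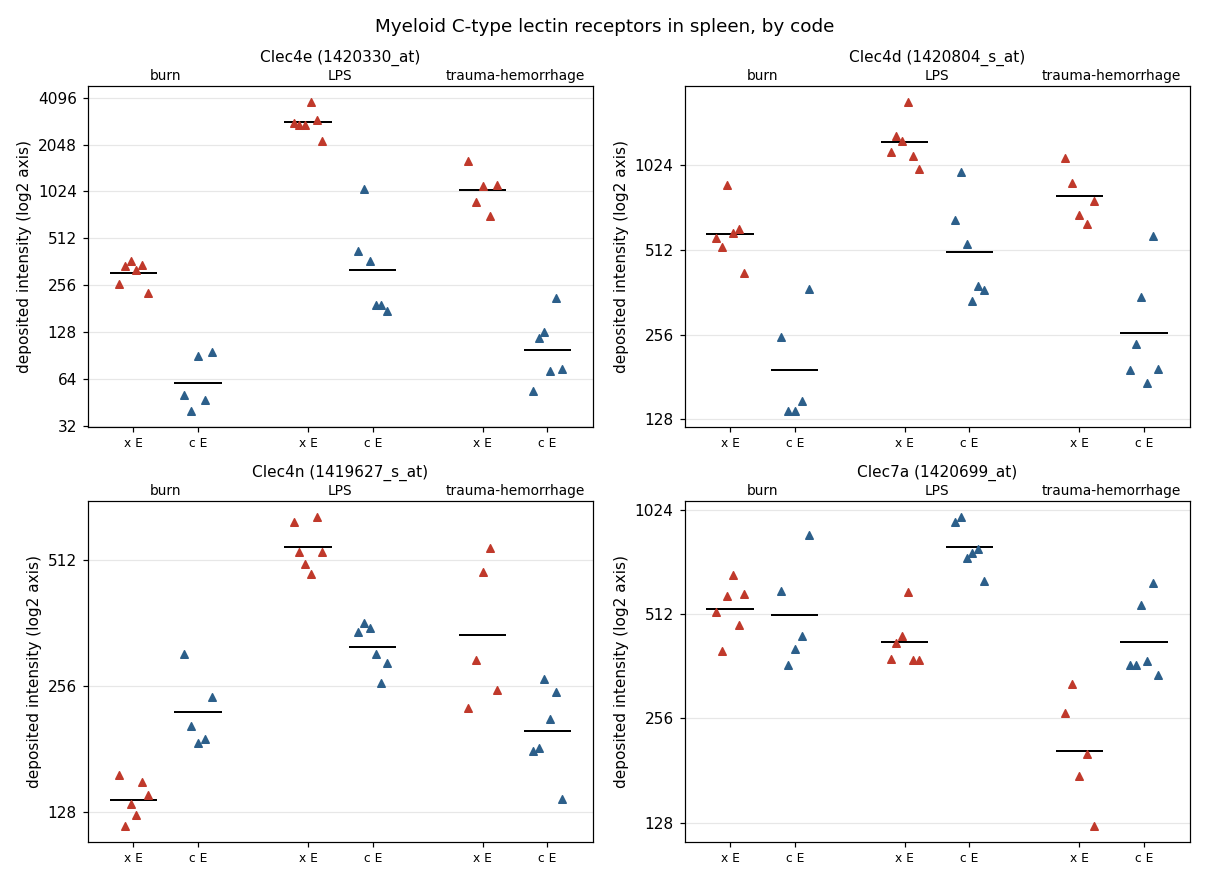
Deposited intensity of Clec4e, Clec4d, Clec4n and Clec7a in every spleen array (vertical axis, log2 scale), by model and code, x in red left of c in blue, and a black line at the geometric mean of each group. All x arrays lie above all c arrays for Clec4e and Clec4d in the 3 models, and below them for Clec7a in LPS and trauma-hemorrhage and for Clec4n in burn.

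In blood, Clec4e 1420330_at had 1710, 1511, 1712, 1619 and 906 in the 5 burn x arrays of letter E, against a median of 263 in the 6 c arrays, whose range ran from 91.2 to 4242. With letter A the 4 x arrays had 2238, 1898, 1414 and 1436, and the 5 c arrays had 113, 179.7, 254, 182 and 123. All 9 x arrays lay above 9 of the 11 c arrays, and the remaining pair of c arrays, both of letter E, had 4242 and 2723. Over both letters x was higher by 2.36 ± 0.49 (adjusted p = 0.00186), with 18.0% of all tested probe sets called and 4 of 5 of the receptors. Without that pair, which no formal rule picked, the difference was 3.01 ± 0.19 (adjusted p = 4.75e-10). That value is a description only, since leaving out the highest c values raises the difference by construction. With letter E alone it was 1.49 ± 0.66 and not past the threshold (adjusted p = 0.221, 5.69% called), and without the pair 2.80 ± 0.26 (adjusted p = 3.44e-07). With letter A alone it was 3.22 ± 0.73 (adjusted p = 0.00534, 14.3% called). Within the second run of titles, with 3 x and 5 c arrays, the burn difference of 2.10 ± 0.72 was not past the threshold (adjusted p = 0.315).

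In LPS blood, Clec4e 1420330_at had 4349, 3584, 3529, 4216 and 1506 in the 5 x arrays of letter E, against 186 to 1388 with a median of 324 in the 6 c arrays. With letter A the 5 x arrays had 1018, 2590, 353, 578 and 1292, and the 6 c arrays had 183 to 2662 with a median of 289. The codes did not overlap with letter E and overlapped widely with letter A. Over both letters x was higher by 2.02 ± 0.44 (adjusted p = 0.00143), and 26.3% of all tested probe sets were called. With letter E the difference was 2.97 ± 0.62 (adjusted p = 0.00216, 14.7% called), and with letter A it was 1.08 ± 0.62 (adjusted p = 0.287, 11.7% called), where no probe set of the receptors passed, 0 of 5 also at an unadjusted p of 0.05 in limma. Of all 15838 tested probe sets, 4112 had an unadjusted p under 0.05 with letter A. The code by letter interaction of 1.89 ± 0.88 did not pass (adjusted p = 0.665). Values also differed by run of titles. In the first run, 5 x arrays had 1018 to 4349 and 6 c arrays 183 to 379, a difference of 3.33 ± 0.25 (adjusted p = 8.32e-06). In the second, 5 x arrays had 353 to 4216 and 6 c arrays 203 to 2662, a difference of 0.79 ± 0.63 (adjusted p = 0.496). The difference between the runs was not tested. With the beta-actin ratio as a covariate the LPS blood value was 0.91 ± 1.48 (adjusted p = 0.706).

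In trauma-hemorrhage blood, Clec4e 1420330_at had 1591 to 5426 with a median of 3233 in the 6 x arrays of letter E, against 176 to 1320 with a median of 908 in the 6 c arrays. With letter A the 5 x arrays had 2320, 865, 2522, 2212 and 2727, and the 5 c arrays had 558, 714, 148, 574 and 711. Within each letter every x array lay above every c array, and the overlap of the codes came from 1 x array of letter A with 865. Over both letters x was higher by 1.72 ± 0.32 (adjusted p = 0.000171). The letters gave 1.76 ± 0.43 for E (adjusted p = 0.00503, 28.9% called) and 1.68 ± 0.47 for A (adjusted p = 0.00918, 37.0% called). Here 51.8% of all tested probe sets were called over both letters, so a call is near the background of this set. By size, 99.6% of the tested probe sets had a lower value of x minus c. With the beta-actin ratio as a covariate the value was 1.36 ± 0.74 and no longer past the threshold (adjusted p = 0.511), and in the first run of titles it was 1.37 ± 0.52 (adjusted p = 0.112). The second probe set of the gene gave 1.73 ± 0.36 for the burn, 1.25 ± 0.29 for the LPS and 1.36 ± 0.22 for the trauma-hemorrhage arrays of blood, all 3 called. With the beta-actin ratio as a covariate 1420331_at was no longer past the threshold in LPS blood (0.56 ± 0.98, adjusted p = 0.727) and trauma-hemorrhage blood (1.11 ± 0.51, adjusted p = 0.41). Nor was it in the second run of titles in burn blood (1.59 ± 0.56, adjusted p = 0.324) and LPS blood (0.44 ± 0.42, adjusted p = 0.579), or in the first run in trauma-hemorrhage blood (1.18 ± 0.39, adjusted p = 0.0809).

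**Figure D2:**
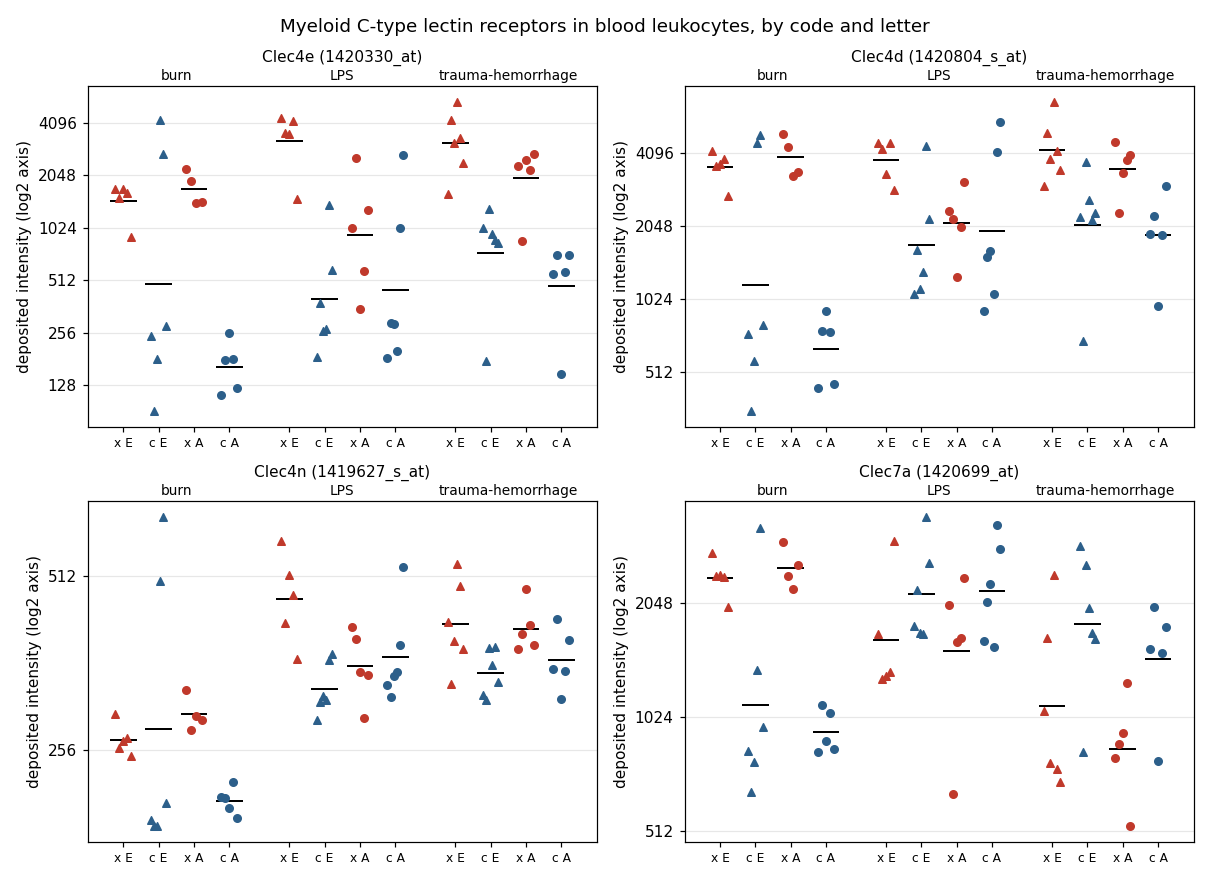
Deposited intensity of Clec4e, Clec4d, Clec4n and Clec7a in every blood array (vertical axis, log2 scale), by model, code and letter, x in red left of c in blue, with triangles for letter E, circles for letter A and a black line at the geometric mean of each group. The pair of burn c arrays of letter E that stand apart lie at 4242 and 2723 for Clec4e, and Clec7a lies mostly higher in x in burn and mostly lower in x in trauma-hemorrhage.

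Clec4d, whose product forms a receptor with Mincle, was higher in x in the spleen of all 3 models and in burn and trauma-hemorrhage blood. In burn spleen the 6 x arrays had 424 to 869 with a median of 576, against 251, 137, 137, 148 and 373 in the 5 c arrays. The LPS spleen x arrays had 998 to 1728 with a median of 1198, and the c arrays had 337 to 967 with a median of 461. In trauma-hemorrhage spleen the x arrays had 1085, 886, 684, 631 and 763, and the c arrays had 172 to 572 with a median of 215. The codes did not overlap in any of the 3 spleen sets. The spleen differences were 1.54 ± 0.23 in burn (2.91-fold, adjusted p = 0.00023), 1.23 ± 0.23 in LPS (2.35-fold, adjusted p = 0.00663) and 1.48 ± 0.24 in trauma-hemorrhage (2.78-fold, adjusted p = 0.000295). In the first run of LPS spleen titles the difference was 0.73 ± 0.18 and not past the threshold (adjusted p = 0.109), and in the second it was 1.73 ± 0.18 (adjusted p = 0.00558).

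In burn blood, Clec4d had 2721 to 4933 with a median of 3698 in the 9 x arrays, against 352 to 4867 with a median of 749 in the 11 c arrays. The same pair of c arrays made the overlap, and x was higher by 1.98 ± 0.35 (3.95-fold, adjusted p = 0.000461), or 2.44 ± 0.16 without the pair. With all arrays the difference was 2.52 for letter A, which was called, and 1.44 for letter E, which was not past the threshold. In LPS blood the 10 x arrays had 1268 to 4534 with a median of 3017, and the 12 c arrays had 913 to 5513 with a median of 1570. The codes overlapped widely, and the difference of 0.65 ± 0.28 did not pass (adjusted p = 0.095), nor did that of letter E, 1.16 ± 0.40 (adjusted p = 0.0545), or of letter A, 0.15 ± 0.40 (adjusted p = 0.857). Within the first run of LPS titles it was 1.35 ± 0.15 (adjusted p = 6.33e-05) and within the second -0.04 ± 0.43 (adjusted p = 0.969). In trauma-hemorrhage blood the 11 x arrays had 2320 to 6714 with a median of 3868, and the 11 c arrays had 690 to 3781 with a median of 2231. The difference of 0.62 ± 0.21 was called (adjusted p = 0.0192), though not in a joint fit of all blood groups, which shares 1 estimate of the spread (adjusted p = 0.072), nor with the beta-actin ratio as a covariate (0.27 ± 0.49, adjusted p = 0.887). By letter the difference was 0.75 for E and 0.48 for A, and neither was past the threshold.

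Clec4n went in opposite directions in the spleen. It was lower in x in burn spleen, where the 6 x arrays of 1419627_s_at had 118 to 157 with a median of 137 and the 5 c arrays had 306, 206, 187, 192 and 241. The codes did not overlap, and the difference was -0.66 ± 0.12 (adjusted p = 0.00103). In LPS spleen it was higher in x, with 474 to 649 and a median of 535 in the 6 x arrays, against 259 to 362 with a median of 325 in the 6 c arrays. The codes did not overlap here either, and the difference was 0.77 ± 0.10 (1.70-fold, adjusted p = 0.000697). In trauma-hemorrhage spleen the x arrays had 227, 295, 478, 547 and 251, and the c arrays had 137 to 266 with a median of 198. The codes overlapped, and x was higher by 0.70 ± 0.19 (1.63-fold, adjusted p = 0.0126).

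In blood, no Clec4n difference over both letters was called. Its values were 249.97 to 325 in the 9 burn x arrays (median 278) and 189 to 649 in the 11 c arrays (median 207), a difference of 0.22 ± 0.17 (adjusted p = 0.427). The burn value rested on the pair of c arrays, which had 502 and 649: without them x was higher by 0.44 ± 0.04 (adjusted p = 1.5e-07). The LPS difference was 0.25 ± 0.10 (adjusted p = 0.0669) and the trauma-hemorrhage one 0.09 ± 0.07 (adjusted p = 0.331). In LPS blood of letter E alone x was higher, with 588, 425, 515, 475 and 368 in the x arrays against 288 to 376 in the c arrays, a difference of 0.49 ± 0.14 (adjusted p = 0.0187). With the beta-actin ratio as a covariate it was not past the threshold (0.84 ± 0.33, adjusted p = 0.0999), nor in the second run of titles (0.18 ± 0.19, adjusted p = 0.715), whereas the first run gave 0.72 ± 0.12 (adjusted p = 0.00172). The dim probe set of the gene, 1425951_a_at, was at the lowest value of its set in 13 blood arrays, all c: 7 of 11 in burn, 4 of 12 in LPS and 2 of 11 in trauma-hemorrhage. The true level of those arrays may be lower, so its fitted blood differences depend on where the floor lies and are given as such. Tested without the filter on low values, it was higher in x in LPS blood by 0.31 ± 0.08 (adjusted p = 0.00767), in trauma-hemorrhage blood by 0.46 ± 0.08 (adjusted p = 0.000187) and, with no array at the floor, in LPS spleen by 0.60 ± 0.13 (adjusted p = 0.0322). Its values were 0.70 ± 0.22 in trauma-hemorrhage spleen (adjusted p = 0.0508), -0.22 ± 0.15 in burn spleen (adjusted p = 0.417) and 0.05 ± 0.16 in burn blood (adjusted p = 0.926).

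Clec7a, the receptor with a signaling motif of its own, was higher in x in burn blood and lower in x in the other 2 blood sets and in LPS and trauma-hemorrhage spleen. In burn blood the 9 x arrays had 1993 to 2972 with a median of 2416, against 647 to 3226 with a median of 882 in the 11 c arrays. All x arrays lay above 10 of the 11 c arrays, and the difference was 1.16 ± 0.16 (2.24-fold, adjusted p = 2.88e-05). It was called with each letter, at 1.01 ± 0.21 for E (adjusted p = 0.00645) and 1.32 ± 0.24 for A (adjusted p = 0.000828), and it was 1.34 ± 0.07 without the pair of c arrays. A fit of letter E alone was not past the threshold (adjusted p = 0.0663). In the second run of titles, 0.65 ± 0.43 for E, 1.36 ± 0.57 for A and the value over both letters were not past it either (adjusted p = 0.96, 0.665 and 0.333). In trauma-hemorrhage blood the 11 x arrays had 526 to 2427 with a median of 866, and the 11 c arrays had 784 to 2886 with a median of 1701. The codes overlapped, and x was lower by -1.15 ± 0.19 (adjusted p = 5.04e-05), with -1.09 ± 0.25 for letter E (adjusted p = 0.00351) and -1.20 ± 0.28 for letter A (adjusted p = 0.00262). Without normalization neither letter alone passed (adjusted p = 0.0972 for E and 0.0943 for A). With the beta-actin ratio as a covariate the value was -1.37 ± 0.43 (adjusted p = 0.207).

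In LPS blood, Clec7a had 642 to 2980 with a median of 1635 in the 10 x arrays and 1569 to 3454 with a median of 2136 in the 12 c arrays. The difference of -0.50 ± 0.18 was close to the threshold (adjusted p = 0.0372) and was lost without the filter on low values (adjusted p = 0.0627), without normalization (adjusted p = 0.104) and in 11 of the 22 fits that left out 1 array. With letter E and with letter A it was also -0.50, and neither was past the threshold. In LPS spleen the 6 x arrays had 376 to 593 with a median of 401, against 636 to 977 with a median of 778 in the 6 c arrays. In trauma-hemorrhage spleen the 5 x arrays had 266, 321, 175, 202 and 125, and the 6 c arrays had 341 to 629 with a median of 371. The codes did not overlap in either of these spleen sets, and the differences were -0.91 ± 0.12 (adjusted p = 0.000487) and -0.89 ± 0.20 (adjusted p = 0.00342). Within the second run of LPS spleen titles the value was -0.72 ± 0.18 (adjusted p = 0.163). In burn spleen the 6 x arrays had 401 to 666 with a median of 547, and the 5 c arrays had 366 to 867 with a median of 442. That difference was 0.02 ± 0.18, with a 95% interval from -0.37 to 0.41 (adjusted p = 0.962).

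**Figure D3:**
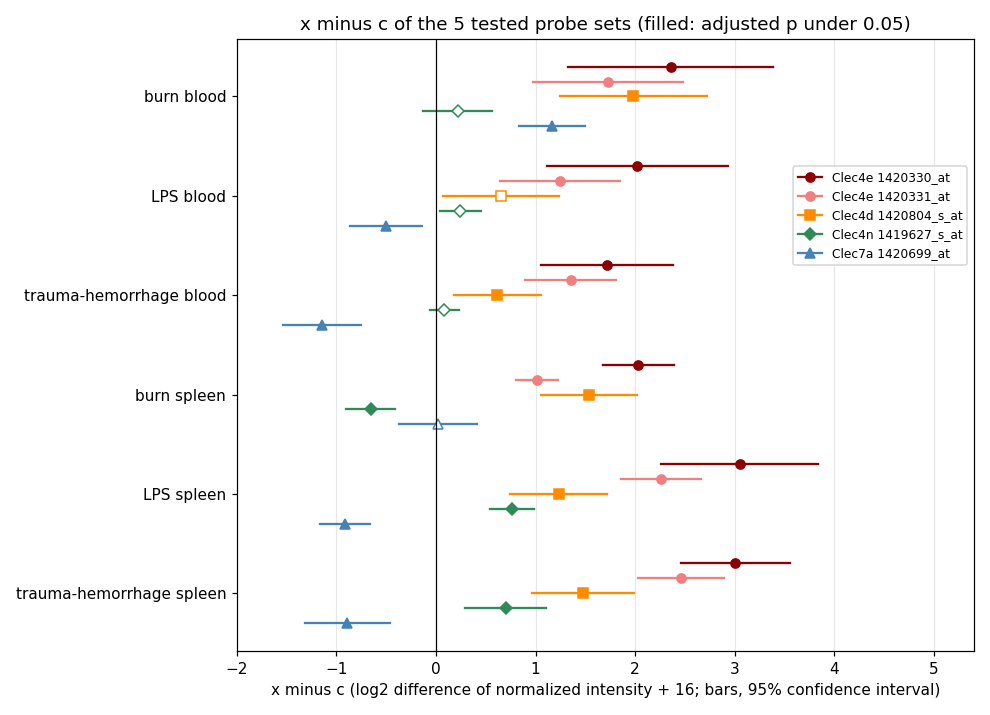
The log2 difference x minus c (horizontal axis) of the 5 tested probe sets in the 6 array sets (vertical axis), with bars for the 95% confidence interval and filled symbols for an adjusted p under 0.05. Both Clec4e probe sets lie right of 0 in all 6 sets, Clec4n lies left of 0 in burn spleen with -0.66, and Clec7a lies right of 0 with 1.16 in burn blood and left of it in 4 other sets.

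The letter made no called difference in blood for any tested probe set of the receptors. E minus A for Clec4e 1420330_at was 0.64 ± 0.49 in burn, 0.80 ± 0.44 in LPS and 0.60 ± 0.32 in trauma-hemorrhage blood (adjusted p = 0.889, 0.943 and 0.537). At an unadjusted p of 0.05, limma gave 0, 1 and 0 of the 5 probe sets, the 1 being Clec4e 1420331_at in LPS blood with 0.65 ± 0.29. At the same cut it gave 893, 839 and 1633 of all 15838 tested probe sets. Of all tested probe sets, 0%, 0% and 0.0189% were called for the letter, against 18.0%, 26.3% and 51.8% for the code. The reading of E as injury or infusion and A as sham comes from the labels and was not tested. These counts therefore do not show that injury or infusion leaves the receptors unchanged. The code by letter interactions called 0 of the 5 probe sets in each model, and 0, 3 and 0 had an unadjusted p under 0.05. Of all 15838 tested probe sets, 1865, 1150 and 1243 had an unadjusted p under 0.05 for the interaction. The shares called at the adjusted threshold were 0.0126% in burn, 0% in LPS and 0% in trauma-hemorrhage.

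Models were then compared by the difference between their x minus c values. The 3 differences of a tissue share array sets and are not independent. In blood, burn exceeded LPS for Clec4d by 1.33 ± 0.43 (adjusted p = 0.0199) and for Clec7a by 1.66 ± 0.26 (adjusted p = 2.61e-06), with 20.9% of all tested probe sets called. Trauma-hemorrhage was below burn for Clec4d by -1.37 ± 0.43 (adjusted p = 0.00842) and for Clec7a by -2.31 ± 0.26 (adjusted p = 4.38e-10), with 43.3% called. Trauma-hemorrhage was below LPS for Clec7a by -0.64 ± 0.26 (adjusted p = 0.0341), with 47.5% called, but not without normalization (adjusted p = 0.493). For Clec4e 1420330_at no difference between models in blood passed, and the 95% intervals ran from -0.94 to 1.61 for burn minus LPS, from -1.54 to 0.94 for trauma-hemorrhage minus LPS and from -1.91 to 0.63 for trauma-hemorrhage minus burn.

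The burn spleen arrays are labelled as leukocytes from the organ and the other spleen arrays as spleen, so model and sample preparation cannot be told apart in comparisons with burn. Only LPS spleen titles carry v2, so model and whatever that marks cannot be told apart in comparisons with LPS. In spleen, burn was below LPS for Clec4e 1420331_at by -1.25 ± 0.25 (adjusted p = 0.000897) and for Clec4n by -1.42 ± 0.21 (adjusted p = 1.27e-05), and above it for Clec7a by 0.93 ± 0.26 (adjusted p = 0.0183), with 9.10% called. Trauma-hemorrhage was above burn for Clec4e 1420331_at by 1.45 ± 0.26 (adjusted p = 5.77e-05) and for Clec4n by 1.36 ± 0.22 (adjusted p = 1.11e-05), and below it for Clec7a by -0.91 ± 0.27 (adjusted p = 0.0112), with 23.0% called. The brighter Clec4e probe set gave -1.02 ± 0.42 and 0.98 ± 0.43 in the same 2 comparisons and did not pass (adjusted p = 0.132 and 0.0987). Trauma-hemorrhage and LPS spleen differed for 0 of the 5 probe sets, also at an unadjusted p of 0.05 in limma. Of all 15838 tested probe sets, 12.1% were called and 3714 had an unadjusted p under 0.05 in that comparison. The 95% interval of that comparison ran from -0.89 to 0.80 for Clec4e 1420330_at and from -0.51 to 0.55 for Clec7a.

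Blood minus spleen, which asks whether x minus c of letter E differs between the tissues of a model, called 0 of the 5 probe sets in each model. Unadjusted p-values under 0.05 from limma were 2 of 5 in burn, 0 of 5 in LPS and 2 of 5 in trauma-hemorrhage. Of the 13433 probe sets tested in both tissues, 2287, 2401 and 5661 had an unadjusted p under 0.05. The shares called at the adjusted threshold were 3.49%, 6.61% and 31.7%. For Clec7a the burn value was 0.99 ± 0.34 (adjusted p = 0.0897). For Clec4e 1420330_at the trauma-hemorrhage value was -1.25 ± 0.71 (adjusted p = 0.177).

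Other genes of the pathway were taken from 4 lists and each was represented by its brightest probe set. The lists' medians of x minus c are given beside those of all tested probe sets, which lay between -0.04 and -0.0022 in the 6 sets. Calls in either direction made up 18.0% of all tested probe sets in burn blood, 26.3% in LPS blood, 51.8% in trauma-hemorrhage blood, 17.6% in burn spleen, 3.30% in LPS spleen and 27.4% in trauma-hemorrhage spleen, and each list's counts are to be read against these shares. Of 19 tested target and inflammasome genes in blood, 6 were higher and 2 lower in x in burn, 9 and 0 in LPS, and 7 and 3 in trauma-hemorrhage, beside 18.0%, 26.3% and 51.8% of all tested probe sets. Of 17 tested in spleen, 4 were higher and 2 lower in burn, 5 and 0 in LPS, and 12 and 1 in trauma-hemorrhage, where the list median was 0.71, beside 17.6%, 3.30% and 27.4% of all tested probe sets. In the other 5 sets the list median lay between -0.10 and 0.21. Cxcl2, a neutrophil chemokine, was higher in x in all 6 sets, by 1.31 ± 0.51 in trauma-hemorrhage blood to 4.21 ± 0.27 in trauma-hemorrhage spleen. Acod1, the enzyme that makes itaconate, was also higher in all 6, by 1.74 ± 0.16 in burn spleen to 4.29 ± 0.20 in trauma-hemorrhage spleen. Socs3, a feedback inhibitor of cytokine signaling, was higher in 5 sets and had -0.03 ± 0.20 in trauma-hemorrhage blood (adjusted p = 0.899). Ccl4, a chemokine for monocytes and lymphocytes, was higher by 3.96 ± 0.14 in trauma-hemorrhage spleen and by 1.57 ± 0.14 in LPS spleen, and lower by -0.31 ± 0.08 in burn spleen.

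Of 16 tested downstream transcription factors, x arrays of blood had 4 higher and 1 lower in burn, 7 higher and 0 lower in LPS, and 8 higher and 0 lower in trauma-hemorrhage, where 18.0%, 26.3% and 51.8% of all tested probe sets were called. In spleen the counts were 4 and 0 in burn, 3 and 0 in LPS and 7 and 1 in trauma-hemorrhage, and the list medians lay between -0.0029 and 0.19, with 17.6%, 3.30% and 27.4% of all tested probe sets called. Cebpb, the factor on which Mincle induction depends in macrophages, was higher in x in burn blood by 1.33 ± 0.24, in LPS blood by 1.28 ± 0.17, in burn spleen by 1.64 ± 0.15, in LPS spleen by 0.98 ± 0.23 and in trauma-hemorrhage spleen by 1.63 ± 0.17. In trauma-hemorrhage blood Cebpb had 0.11 ± 0.20 (adjusted p = 0.652). The part of Cebpb in the Clec4e differences was not tested in any set. Relb, an NF-kB subunit, was higher in 5 sets, by 0.92 ± 0.12 in LPS blood and 0.47 ± 0.09 in burn spleen, and had -0.25 ± 0.14 in burn blood (adjusted p = 0.244). Hif1a, the hypoxia-inducible factor, was higher in 4 sets, most in trauma-hemorrhage blood with 1.23 ± 0.12. Irf1, an interferon-regulated factor, was higher in 5 sets, by 0.28 ± 0.09 in burn blood to 0.90 ± 0.12 in trauma-hemorrhage spleen.

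Signaling genes between the receptors and NF-kB were called in both directions. Of 23 tested in blood, 3 were higher and 6 lower in x in burn, 8 and 0 in LPS, and 6 and 7 in trauma-hemorrhage, against a background of 18.0%, 26.3% and 51.8% called. Of 22 tested in spleen, 5 were higher and 4 lower in burn, 1 and 0 in LPS, and 2 and 6 in trauma-hemorrhage, and the list medians lay between -0.10 and 0.09 over the 6 sets. The background in spleen was 17.6%, 3.30% and 27.4%. Card9 and Malt1 were not among the named probe sets and were not analysed here. Fcer1g, the partner chain of 3 of the receptors, was named for that role, outside the rule for named genes. It was higher in x in LPS blood by 0.39 ± 0.10, in trauma-hemorrhage blood by 0.32 ± 0.12 and in trauma-hemorrhage spleen by 0.54 ± 0.11, and had 0.22 ± 0.09 in burn blood (adjusted p = 0.123), -0.36 ± 0.14 in burn spleen (adjusted p = 0.0802) and 0.23 ± 0.08 in LPS spleen (adjusted p = 0.194). Fgr, a Src-family kinase of myeloid cells, was higher in x in LPS spleen by 0.53 ± 0.11 and in trauma-hemorrhage spleen by 0.76 ± 0.09, and lower in burn spleen by -0.50 ± 0.11, the order of signs that Clec4n had. Lcp2 (SLP-76), an adaptor downstream of Syk, was higher by 1.19 ± 0.15 and Vav3, a guanine nucleotide exchange factor, by 0.74 ± 0.15 in trauma-hemorrhage blood. Blnk, the B cell homologue of Lcp2, was lower by -0.80 ± 0.10 in burn blood and by -0.31 ± 0.05 in burn spleen, where 7 of 8 and 7 of 9 tested B cell markers were lower with it.

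Related receptors gave a mixed picture. Of 15 tested in blood, 1 was higher and 1 lower in x in burn, 6 and 1 in LPS, and 4 and 5 in trauma-hemorrhage arrays, with 18.0%, 26.3% and 51.8% called over all tested probe sets. Of 12 tested in spleen, 1 was higher and 4 lower in burn, 1 and 0 in LPS, and 1 and 2 in trauma-hemorrhage, with list medians between -0.16 and 0.03 over the 6 sets, and 17.6%, 3.30% and 27.4% called over all tested probe sets. Clec5a, a myeloid receptor that pairs with DAP12, was higher by 1.03 ± 0.12 in trauma-hemorrhage blood. Clec4a2, a receptor with an inhibitory motif encoded near Clec4n, was lower by -0.72 ± 0.09 in burn spleen and by -0.79 ± 0.11 in trauma-hemorrhage spleen, and higher by 0.57 ± 0.22 in trauma-hemorrhage blood. Mrc1, the macrophage mannose receptor, was lower by -0.89 ± 0.13 in burn spleen. Clec1b, the platelet receptor CLEC-2, was lower by -0.47 ± 0.13 in trauma-hemorrhage spleen.

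These are bulk samples, in which a larger share of cells of a type and more RNA per cell cannot be told apart. Of 13 tested neutrophil markers, x arrays of blood had 7 higher and 0 lower in burn, 11 higher and 0 lower in LPS, and 7 higher and 1 lower in trauma-hemorrhage, where 18.0%, 26.3% and 51.8% of all tested probe sets were called. Their summed intensity was 22812 to 37670 in x and 6338 to 56266 in c arrays of burn blood. It was 17360 to 57725 in x and 10769 to 41555 in c arrays of LPS blood, and 29727 to 86470 in x and 11211 to 40601 in c arrays of trauma-hemorrhage blood. In spleen, 0 were higher and 2 lower in burn (8457 to 14820 in x, 8212 to 15789 in c), 7 were higher in LPS (21162 to 31569 in x, 10515 to 23214 in c) and 6 in trauma-hemorrhage (13992 to 21167 in x, 7391 to 15131 in c), with 17.6%, 3.30% and 27.4% of all tested probe sets called. The part of neutrophils in the receptor differences was not tested in any of the 6 sets. No marker of this list was held at the lowest value in all arrays of a set.

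Of the monocyte and macrophage markers, 13 were tested in blood and 12 in spleen. In blood, 1 was higher and 1 lower in x in burn, 1 and 1 in LPS, and 7 and 1 in trauma-hemorrhage, with 18.0%, 26.3% and 51.8% of all tested probe sets called. In spleen, 1 was higher and 7 lower in burn, 1 and 0 in LPS, and 2 and 7 in trauma-hemorrhage, with 17.6%, 3.30% and 27.4% called. Their summed intensity in spleen was 6659 to 8003 in x and 7489 to 11658 in c arrays of burn, 14820 to 16908 in x and 13235 to 17654 in c arrays of LPS, and 6103 to 9624 in x and 7447 to 10287 in c arrays of trauma-hemorrhage. In blood it was 14507 to 22404 in x and 9716 to 24649 in c arrays of burn, 15147 to 25898 in x and 15893 to 26401 in c arrays of LPS, and 16273 to 28811 in x and 7897 to 17346 in c arrays of trauma-hemorrhage. Of these markers too, none was held at the lowest value in all arrays of a set, and their part in the differences of Clec4n and Clec7a was not tested.

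B and T cell markers also differed between the codes. Of 8 B cell markers tested in blood, 0 were higher and 7 lower in x in burn (list median -1.19), 1 and 2 in LPS, and 0 and 4 in trauma-hemorrhage, with 18.0%, 26.3% and 51.8% of all tested probe sets called. Their summed intensity was 3907 to 5464 in x and 4993 to 13014 in c arrays of burn blood, 5419 to 12032 in x and 6246 to 11747 in c arrays of LPS blood, and 2211 to 5071 in x and 2759 to 6586 in c arrays of trauma-hemorrhage blood. Of 9 tested in spleen, 7 were lower in burn (list median -0.37), 2 in LPS and 7 in trauma-hemorrhage (list median -0.35), 0 were higher, and 17.6%, 3.30% and 27.4% of all tested probe sets were called. The sums were 11356 to 13070 in x and 15077 to 17518 in c arrays of burn spleen, 20486 to 23317 in x and 22488 to 24466 in c arrays of LPS spleen, and 10462 to 13739 in x and 16429 to 19939 in c arrays of trauma-hemorrhage spleen.

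Of 9 tested T cell markers, 0 were higher and 2 lower in x in burn blood (summed intensity 2953 to 4093 in x, 3520 to 4691 in c), 0 and 1 in LPS blood (3453 to 3988 in x, 3403 to 4332 in c) and 2 and 2 in trauma-hemorrhage blood (2743 to 3837 in x, 2788 to 3179 in c). In burn spleen 4 were higher and 0 lower (4412 to 5531 in x, 2213 to 3816 in c), and in LPS spleen 0 and 1 (4740 to 5401 in x, 5010 to 6006 in c). In trauma-hemorrhage spleen 0 were higher and 8 lower, with a list median of -0.65 (2498 to 3373 in x, 3940 to 5072 in c). The backgrounds are those given for the B cell markers. No B or T cell marker was at the lowest value in all arrays of a set, and the part of these cells in the receptor differences was not tested.

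Across arrays, Clec4e and Clec4d varied together. With values centred on the mean of each array set, Pearson's r was 0.930 over the 64 blood arrays and 0.921 over the 34 spleen arrays (Spearman's rho 0.930 and 0.866). After centring on each group, which removes code and letter, r was 0.954 in blood and 0.794 in spleen. Clec4d ranked 13th in blood and 12th in spleen among all genes by likeness to Clec4e. Clec4e and Clec4n had r = 0.748 in blood and 0.454 in spleen, and 0.774 and 0.155 after centring on each group. Clec4e and Clec7a had r = 0.162 in blood and -0.548 in spleen, and 0.472 and 0.444 after centring on each group. Clec4d and Clec7a had r = 0.428 in blood and -0.258 in spleen, and 0.604 and 0.747 after centring on each group. These are descriptions, since arrays of a set share their processing and their models.

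**Figure D4:**
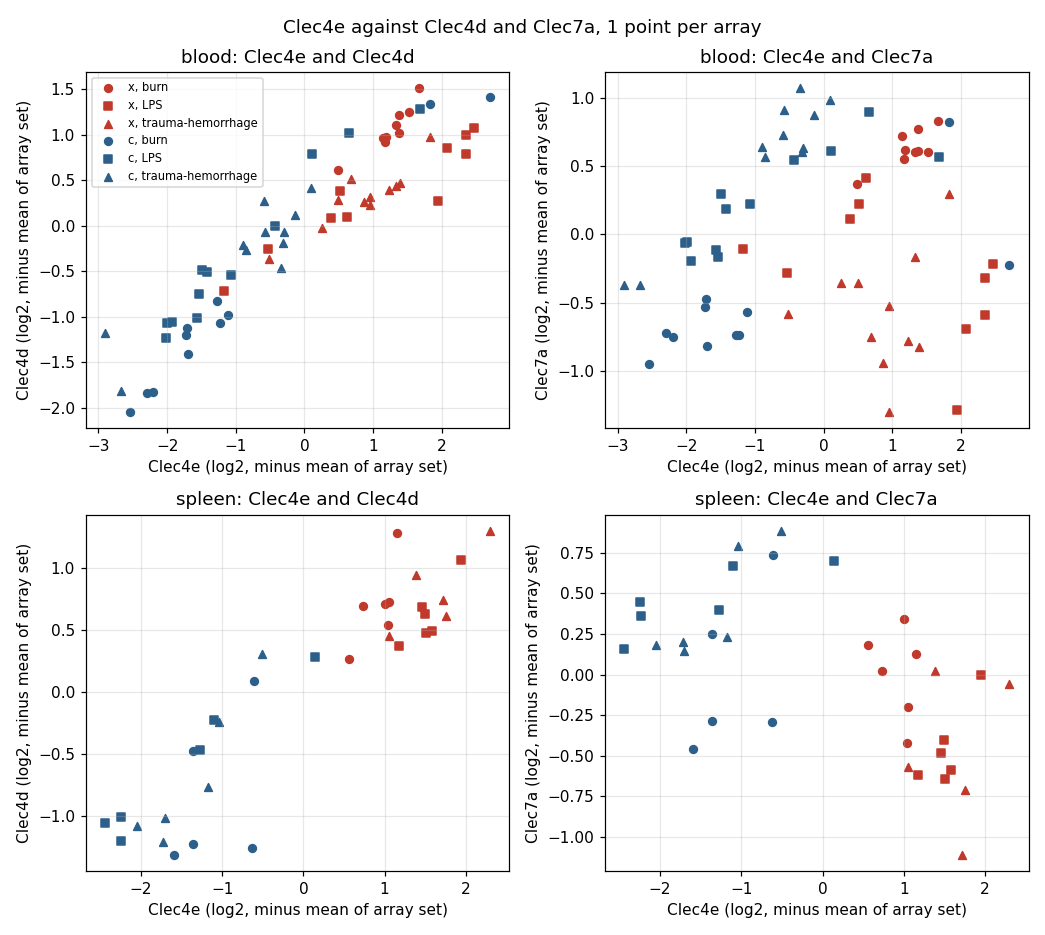
Each point is 1 array, with Clec4e (1420330_at) on the horizontal axis and Clec4d (left) or Clec7a (right) on the vertical axis, as normalized log2 values minus the mean of the array set, for blood (top) and spleen (bottom), with x in red, c in blue and a symbol per model. Clec4d follows Clec4e with r of 0.930 in blood and 0.921 in spleen, whereas Clec7a has r of 0.162 and -0.548. These values hold the difference between the codes. After centring on each group, r with Clec4e was 0.954 and 0.794 for Clec4d, and 0.472 and 0.444 for Clec7a.

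The genes most like each receptor were named by the highest r over arrays centred on their set, among 11280 genes in blood and 11090 in spleen. For Clec4e these were Samsn1 (0.952), Acod1 (0.950), Tnfaip2 (0.949) and Fpr2 (0.947) in blood, and Acod1 (0.957), Cd14 (0.949), Samsn1 (0.942) and Dgat2 (0.936) in spleen. For Clec4d they were Arg2 (0.967), Tnfaip2 (0.956), Il1r2 (0.951) and Ccr1 (0.948) in blood, and Arg2 (0.959), Hdc (0.937), Retnla (0.934) and Clec4e (0.921) in spleen. Clec4e and Clec4d thus had Tnfaip2 in common in blood, and centring on the group left r between 0.911 and 0.962 for the blood genes of both. For the spleen genes it left less, 0.643 to 0.753 for Clec4e and 0.794 to 0.883 for Clec4d. For Clec4n they were Fpr2 (0.811), Mapk13 (0.803), Lcn2 (0.781) and Mmp8 (0.778) in blood, and Marcks (0.815), Sash1 (0.788), Igsf6 (0.783) and Cd302 (0.781) in spleen. For Clec7a they were Slc40a1 (0.917), which encodes the iron exporter ferroportin, Scnn1a (0.854), Cd300c2 (0.850) and Rell1 (0.847) in blood. In spleen Clec7a was most like Myadm (0.804), Tgfbi (0.744), Lst1 (0.738) and H1f2 (0.732). After centring on the group, r of the Clec4n genes was 0.7402 to 0.7845 in blood and 0.228 to 0.653 in spleen. That of the Clec7a genes was 0.695 to 0.862 in blood and 0.514 to 0.656 in spleen.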

How the data were processed

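The deposited values are linear intensities, 1 per probe set and array, as the authors deposited them. The sources used here do not say how the scans were summarised or scaled. The 64 control probe sets were left out, and symbols came from the platform gene table. It names 20380 probe sets with 1 symbol and 691 with more than 1, and leaves 1555 unnamed. The members and all gene lists were chosen with earlier results of these data known. Intensities were taken as log2(value + 16), quantile normalized within each tissue and filtered at the 30th percentile of the mean. Each array set was fitted alone with 1 term per group in limma 3.58.1 (R 4.3.3; lmFit, contrasts.fit, eBayes with a trend), with two-sided tests and Benjamini-Hochberg adjustment over all probe sets tested. Model and tissue differences were contrasts in joint fits. Folds are on the log2(value + 16) scale and understate changes of dim genes. No 2 arrays held identical values. On simulated data of the same size, 97.5% to 99.5% of 200 probe sets changed by 1 log2 unit were recovered in the 6 x minus c comparisons. Of the calls, 2.94% (trauma-hemorrhage blood) to 7.08% (burn spleen) fell on unchanged probe sets. The simulation drew independent noise for each probe set, without the shared array effects, outlying arrays or floors of real data. All 6 member probe sets are described. From each pathway list the 4 genes with the largest absolute mean x minus c over the 6 sets, among genes tested in both tissues, are named, and for each receptor its 4 most alike genes. The number of arrays limits the precision. Alternatives covered the pseudocount, normalization, filter, variance, weights, covariates, blocks and leaving out each array.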

Additional observations from a re-analysis of the deposited data

Results flagged for a closer look

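In 17 of 108 combinations of a probe set and a group of 4 to 6 arrays, 1 array lay far from the others by Dixon's criterion, which chance meets in about 1 in 20. The criterion was applied to normalized log2 values, whereas the values given here are deposited intensities. For Clec4e 1420330_at, x replicate 5 of letter E had 906 in burn blood, against 1511 to 1712 in the other arrays of its group, and x replicate 5 of letter E had 1506 in LPS blood, against 3529 to 4349. In trauma-hemorrhage blood, c replicate 3 of letter A had 148 against 558 to 714, and c replicate 2 of letter E had 176 against 834 to 1320. The second Clec4e probe set gave the same burn and LPS blood arrays, with 508 against 786 to 924 and 724 against 1235 to 1746. It also gave x replicate 2 of letter A in trauma-hemorrhage blood with 485 against 1174 to 1469, c replicate 2 of LPS spleen with 265 against 104 to 142, and x replicate 4 of LPS spleen with 896 against 624 to 672. Clec4d had 2905 in the same LPS blood x array, replicate 5 of letter E, against 3368 to 4534. For Clec7a, the same 2 trauma-hemorrhage c arrays were low, with 784 against 1512 to 1998 in letter A and 827 against 1641 to 2886 in letter E. Clec4n 1419627_s_at had 532 against 316 to 389 in c replicate 6 of letter A in LPS blood, and 487 against 382 to 421 in x replicate 3 of letter A in trauma-hemorrhage blood. The dim Clec4n probe set 1425951_a_at had 27.7 in c replicate 4 of letter A in burn blood, whose other arrays were all at the lowest value of 27.3, 27.9 in x replicate 1 of burn spleen against 15.3 to 18.9, and 44.4 in c replicate 5 of letter E in LPS blood against 32.5 to 34.6.

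The x minus c difference itself differed between models, by a test of that difference in limma, for Clec4d in blood with 1.33 for burn minus LPS and -1.37 for trauma-hemorrhage minus burn. For Clec7a in blood it differed by 1.66 for burn minus LPS, -2.31 for trauma-hemorrhage minus burn and -0.64 for trauma-hemorrhage minus LPS. In spleen it differed for Clec7a by 0.93 for burn minus LPS and -0.91 for trauma-hemorrhage minus burn, for Clec4n by -1.42 and 1.36 in the same comparisons, and for Clec4e 1420331_at by -1.25 and 1.45. The cause of these differences was not tested.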

How the results depend on the processing

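Of the 25 called x minus c differences in the 6 array sets, none changed sign under any alternative, and 680 of 714 alternative values stayed past the threshold. The 14 called in spleen stayed past it in all 315 alternative values other than the runs of titles taken alone. The count of receptor probe sets called changed as follows. The run of titles as a block, robust variance, 1 probe set per gene, no filter, a filter at the 50th percentile and a pseudocount of 64 left every count within 1.5 times. A pseudocount of 1, and likewise normalization within each array set, called 1 in blood minus spleen of trauma-hemorrhage instead of 0. Without normalization, trauma-hemorrhage minus LPS in blood called 0 instead of 1. Burn blood of letter E called 1 in the main setting, 2 in a joint fit of all blood groups, 4 with array weights or the beta-actin covariate, 0 in a fit of that letter alone and 5 without the pair of c arrays, where Clec4n had 0.40 in place of -0.06 and was called. Array weights called 5 in LPS blood (main 3) and 5 with letter E (main 3), 1 each for the letter and the interaction in LPS blood, and 2 each in blood minus spleen of burn and trauma-hemorrhage. The beta-actin covariate called 0 in LPS blood, LPS blood of letter E and trauma-hemorrhage blood over both letters and in each letter, and 2 in blood minus spleen of trauma-hemorrhage. Each run of titles alone, an alternative chosen after seeing the data, has fewer arrays. The first run called 2 in burn blood of letter A (main 4), 3 in LPS blood of letter A (main 0), 1 in trauma-hemorrhage blood (main 4) and 0 in each of its letters. The second called 0 in burn blood, in each of its letters, in LPS blood and in LPS blood of letter E. Leaving out 1 array gave 1 to 4 in burn blood of letter E, 0 to 2 and 0 to 1 in blood minus spleen of burn and trauma-hemorrhage, and 0 to 1 in trauma-hemorrhage minus LPS in blood. In burn blood of letter E the count was 4 without c replicate 4 and 3 without c replicate 5. The causes of these changes were not tested. No paired analysis was possible because the labels give the groups no shared replicate numbers.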
